A study of Mus musculus with 18 samples.

Results

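Memory-phenotype CD8 T cells, sorted from wild-type mice by high surface CD44, were compared with naive CD8 T cells sorted by low surface CD44. Of the 18 RNA sequencing libraries of the series, 8 enter this comparison, 4 naive and 4 memory. They were chosen by their sample titles and by the strain and sort named in their descriptions, and no measured value was used to choose them. The comparison was made across the 9437 of 46983 genes that reached 10 or more in 4 or more of the 18 libraries. The mice of both groups were of the strain C57BL/6J, with a wild-type genotype, and the labels name no treatment. Neither the age of the mice, nor whether replicates were separate animals, is given in the labels, so p-values here measure only how far these libraries spread, which may in part be technical. The other 10 libraries came from mice of the genotype Dock2-Hsd/Hsd, called Dock2-/- in the labels, 5 for each sort. Their strain field also reads C57BL/6J, while their descriptions carry the name C57L6NHsd. They are used here in the filter on low values, in the estimate of the spread and for a comparison of the memory effect. Values are normalized expected counts, that is, reads assigned to a gene and scaled between libraries by the authors, and they are not divided by gene length.

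Naive CD8 T cells circulate between blood and lymph nodes, which they enter with the help of the chemokine receptor CCR7. Memory cells carry high CD44 and the IL-2 and IL-15 receptor chain CD122, and they release cytokines and kill target cells faster than naive cells do. In mice, cells with the memory phenotype also arise without infection, in response to cytokines such as IL-15 and IL-4, under the transcription factors T-bet and Eomes. Some of these cells carry receptors better known from natural killer (NK) cells.

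In wild-type mice, memory cells held more RNA for T-bet (Tbx21), for the chemokine CCL5, for the chemokine receptors CXCR3 and CXCR5, for IL-18 receptor chains, and for lectin receptors of the NK gene complex. They held less RNA for the gut-homing receptor CCR9, for the integrin chain CD103 (Itgae) and for genes such as Igfbp4 and Rgcc. RNA for CD8, CD3 and the transcription factor TCF-1 passed the test in neither direction. In bulk RNA, fewer cells that express a gene and less RNA per cell cannot be told apart.

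Of the 9437 genes, 238 passed limma's test at an adjusted p under 0.05, which is 2.52%. They were 177 genes higher in memory cells (1.88% of those tested) and 61 lower (0.646%). Every memory library lay above every naive library for 174 of the 177 higher genes and below for 60 of the 61 lower genes. Over all genes tested the groups did not overlap for 8.27%, 4.99% higher and 3.27% lower in memory cells. When each of the 8 libraries was left out in turn, 111 of the higher and 37 of the lower calls were kept in all 8 fits. No call changed sign in these fits, which could not have happened for a gene whose groups did not overlap.

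Many of the higher genes were close to silent in naive cells. A mean value under 10 in naive cells was found for 93 of the 177 higher genes, and 25 of these were listed at 0 in all 4 naive libraries. Those 25 could reach the filter only through other libraries. In the other direction, 27 of the 61 lower genes had a mean under 10 in memory cells, and none was listed at 0 in all 4 memory libraries. Both group means were at least 10 for 84 higher and 34 lower genes.

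Log2 fold changes, on the scale log2(value + 1), had a median of 2.64 among the higher genes and -2.17 among the lower ones. The higher genes reached 8.94 and the lower genes -7.04. For a gene listed at 0 in every naive library, a fold was instead taken against a floor of 3 reads per naive library, as a lower bound. With these bounds the median of the higher genes was 2.30. Leaving those 25 genes out, 140 higher genes changed at least 2-fold, 84 at least 4-fold and 27 at least 16-fold. The lower genes numbered 55, 35 and 5 at the same sizes. The median over all genes tested was -0.02.

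**Figure D1:**
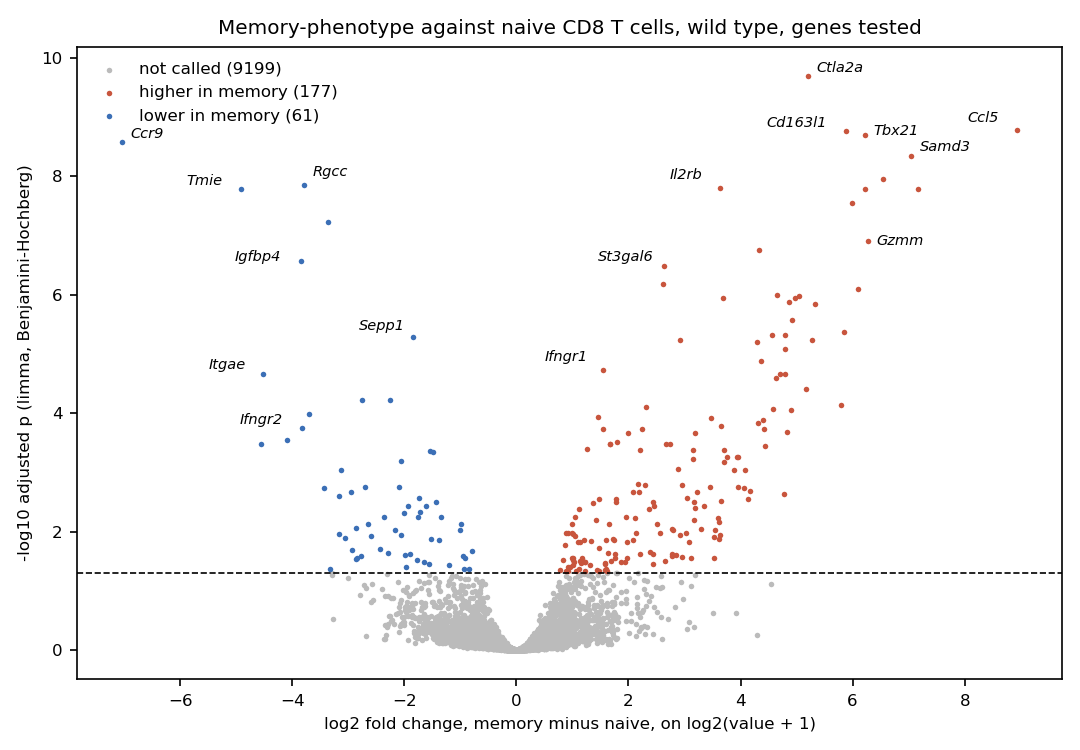
Each point is one of the 9437 genes tested, with the log2 fold change (memory minus naive, on log2(value + 1)) on the x axis and -log10 of limma's adjusted p on the y axis. The dashed line marks an adjusted p of 0.05, above which lie 177 genes higher in memory cells (red) and 61 lower (blue), the red points reaching 8.94 and the blue -7.04.

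Most genes were measured too loosely for a small change to be seen. The median standard error of the log2 fold change was 0.389, and the 95% interval lay within 2-fold in both directions for 3520 genes (37.3%). Among the 1947 genes whose mean value reached 100, the interval lay within 2-fold for 1273 (65.4%). Before adjustment, 1140 genes were at a p under 0.05. The libraries held 2336817 to 6841970 expected reads, of which the ribosomal RNA gene Rn18s-rs5 took 52.1% to 69.4% and mitochondrial genes 4.09% to 6.58%. Each library listed 12423 to 14548 genes above 0.

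Memory library 4 stood apart from the other libraries. It had the fewest genes above 0 (12423) and the largest ribosomal share (69.4%). The first principal component of the 8 libraries (37.3% of the variance) placed it at 113.0 and the other 7 between -31.7 and 2.3. Naive libraries (-28.9 to -20.1) and memory libraries 1 to 3 (39.7 to 44.0) were parted by the second component (19.7%), on which memory library 4 lay at -26.3. Among the 177 higher genes, however, memory library 4 was the lowest memory library for 55 and the highest for 65. Without it, 140 higher and 49 lower genes passed, of which 132 and 44 were among the 177 and 61. Pearson correlations of log2 values were 0.847 to 0.899 between naive libraries, 0.786 to 0.919 between memory libraries, and 0.733 to 0.863 between the groups.

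**Figure D2:**
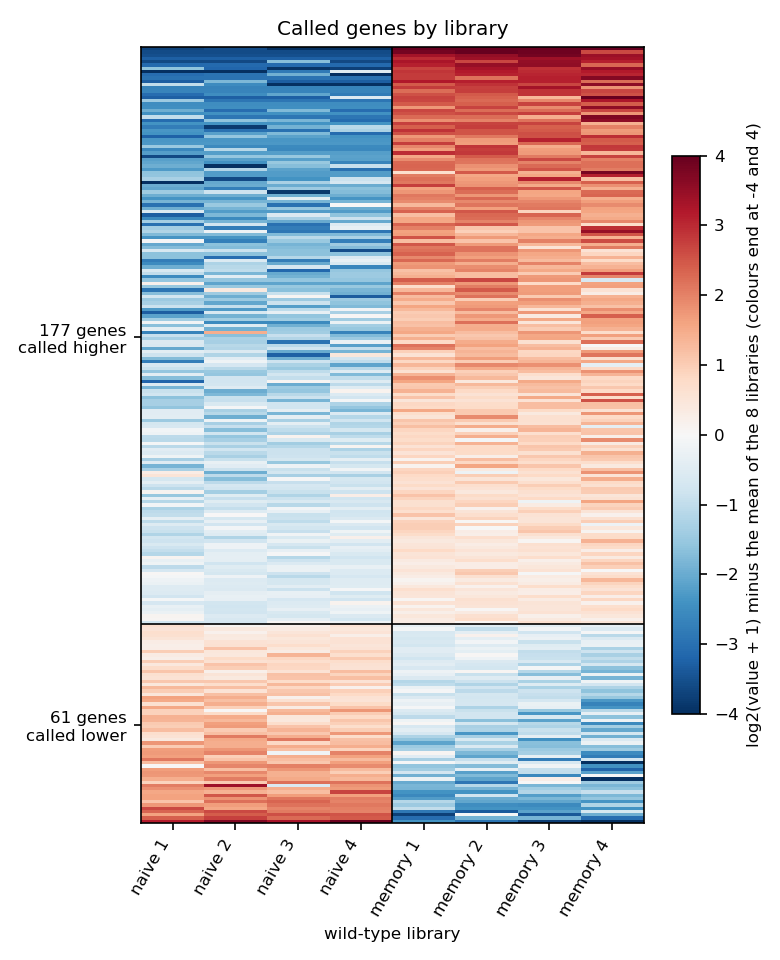
Rows are the 177 genes called higher and the 61 called lower, columns are the 8 wild-type libraries, and colour is log2(value + 1) minus the gene's mean over the 8 libraries, with colours ending at -4 and 4. Naive columns are blue in the upper block and red in the lower one, memory columns the reverse, and memory library 4 holds the lowest memory value for 55 and the highest for 65 of the 177 higher genes.

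Sequence upstream of the start is shown for the 3 higher and 2 lower genes with the smallest adjusted p among the named genes held in the promoter table, as context for the strongest changes. The letters are the 250 bases before the RefSeq start on GRCm38.p6 (the mm10 build), 5′ to 3′ on the gene's strand, for Ctla2a (chr13:60936626-60936875, minus strand), Cd163l1 (chr7:140218017-140218266, plus strand), Tbx21 (chr11:97115332-97115581, minus strand), Ccr9 (chr9:123766961-123767210, plus strand) and Rgcc (chr14:79301636-79301885, minus strand). Capitals mark a match to one of 7 motifs searched on both strands.
Ctla2a: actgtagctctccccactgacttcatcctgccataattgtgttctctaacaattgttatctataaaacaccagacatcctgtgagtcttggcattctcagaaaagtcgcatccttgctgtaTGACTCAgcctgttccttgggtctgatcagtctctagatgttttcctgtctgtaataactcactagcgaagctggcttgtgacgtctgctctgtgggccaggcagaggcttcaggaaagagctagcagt
Cd163l1: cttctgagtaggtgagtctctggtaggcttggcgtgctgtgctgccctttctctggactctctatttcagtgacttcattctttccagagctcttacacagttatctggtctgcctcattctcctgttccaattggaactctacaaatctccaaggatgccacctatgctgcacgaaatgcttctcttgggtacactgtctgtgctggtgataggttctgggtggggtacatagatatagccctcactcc
Tbx21: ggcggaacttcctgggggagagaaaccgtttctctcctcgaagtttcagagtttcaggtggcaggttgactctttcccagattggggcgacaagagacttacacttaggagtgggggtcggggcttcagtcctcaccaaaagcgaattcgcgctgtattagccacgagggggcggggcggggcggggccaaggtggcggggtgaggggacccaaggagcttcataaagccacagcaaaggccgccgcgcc
Ccr9: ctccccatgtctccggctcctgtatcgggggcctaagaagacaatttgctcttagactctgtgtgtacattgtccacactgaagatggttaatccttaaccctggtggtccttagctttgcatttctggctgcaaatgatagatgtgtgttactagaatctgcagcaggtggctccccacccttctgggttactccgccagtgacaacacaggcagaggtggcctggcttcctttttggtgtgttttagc
Rgcc: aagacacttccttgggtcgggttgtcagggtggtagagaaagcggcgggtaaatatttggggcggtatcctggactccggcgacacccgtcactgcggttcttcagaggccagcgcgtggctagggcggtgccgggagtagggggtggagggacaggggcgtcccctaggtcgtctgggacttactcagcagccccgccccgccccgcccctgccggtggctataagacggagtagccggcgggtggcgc
The Ctla2a stretch held 1 match, to the AP-1 motif TGANTCA, and the other 4 stretches shown held none. Tmie, the next lower gene by this rule, is not shown, and its stretch held 1 match, to the E-box CAGCTG. Over the 7168 genes tested that had a promoter entry, the same stretch held TGANTCA in 3.53%, the T-box motif GGTGTGA in 2.80%, the RUNX motif TGTGGTT in 3.24% and the ETS motif CGGAAGT in 12.3%. The TCF and LEF motif CTTTGAT was held by 2.43%, the KLF motif GGGTGTG, which can overlap the T-box motif, by 6.68%, and the E-box CAGCTG by 9.97%. Promoter entries were found for 184 of the 238 called genes (77.3%), too few to compare shares between called and other genes, so that check is void.

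The sort was checked against the RNA of its own markers. Cd44, whose protein was the gate, was 6.06, 7.23, 9.78 and 3.39 in the 4 naive libraries and 216, 210.3, 220.4 and 124 in the 4 memory libraries. This difference follows from the gate and is a description. Cd8a, which encodes the CD8 alpha chain, was 857, 1032, 906 and 927 in naive and 666, 648, 646 and 612 in memory libraries. All 4 memory libraries lay below all 4 naive ones, but with a log2 fold change of -0.53 ± 0.23 (SE) Cd8a missed the threshold (adjusted p = 0.355, 95% interval -1.02 to -0.04). Under quantile normalization of the libraries Cd8a and Cd8b1, the CD8 beta chain gene, did pass as lower (adjusted p = 0.044 and 0.00325). Cd3e, a chain of the T cell receptor complex, was 1769 to 3072 in naive libraries and 1870.2 to 3239.8 in memory libraries, groups that overlapped.

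Of the 16 tested genes of CD8 T cell identity, 1 was called, against 2.52% of all genes tested. Cd28, the costimulatory receptor gene, rose from 72.7, 75.9, 108 and 98.2 in naive to 169.9, 180.1, 137 and 345 in memory libraries (log2 fold change 1.15 ± 0.29, adjusted p = 0.034). The groups did not overlap, yet leaving out naive library 1, 2 or 4 or memory library 1, 2 or 4 ended the call, with adjusted p reaching 0.141. The median log2 fold change of the list was 0.07.

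Markers of other cells were read alongside. The summed value of 8 B cell markers was 475 to 707 in naive libraries and 369.8 to 678 in memory libraries, mostly Ighm, while Cd79a was at most 2.79 in naive and 0 in all memory libraries. Cd22 lay the other way, with at most 3.40 in naive libraries and 0 to 40.7 in memory libraries (log2 fold change 2.84, adjusted p = 0.183). Sums over 10 markers of macrophages, monocytes and neutrophils were 5.71 to 26.6 and 5.80 to 16.7, and over 10 dendritic cell markers 3.89 to 30.9 and 14.9 to 21.3. The 6 plasma cell markers summed to 12.4 to 54.5 and 24.5 to 68.3, the 8 erythroid and platelet markers to 0 to 8.38 and 1.75 to 5.16, and the 7 stromal and endothelial markers, mostly Pecam1, to 94.0 to 139.6 and 60.4 to 97.3. No member of these 6 lists was called, and their ranges overlapped between the groups.

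For 3 lists of other lymphocytes the summed value was higher in memory libraries, without overlap. NK cell and innate lymphocyte markers (10 genes, 2 called, Fcer1g and Klrb1c) summed to 27.0 to 57.5 in naive libraries and 100.6 to 147 in memory libraries. Of the defining genes, Ncr1, the receptor NKp46, was 0 in all naive and 0 to 5.80 in memory libraries, and Tyrobp, the adaptor DAP12, was 0 and 1.29 to 8.74. CD4 and regulatory T cell markers (8 genes, 1 called) summed to 18.2 to 26.8 and 133 to 305.1, of which Cxcr5 made up most, while Cd4 was 0 in all naive and 0 to 3.87 in memory libraries. Markers of gamma delta T cells and natural killer T cells (9 genes, 4 called, namely Cd163l1, Tcrg-C2, Tcrg-C4 and Trdc) summed to 5.18 to 11.3 and 98.2 to 177. In memory libraries Cd163l1 gave 33.4 to 96.2 and Tcrg-C2 19.9 to 33.3 of these sums, with Zbtb16 at 0 in naive and at most 1.66 in memory libraries. The part of such cells in the results below was not tested.

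**Figure D3:**
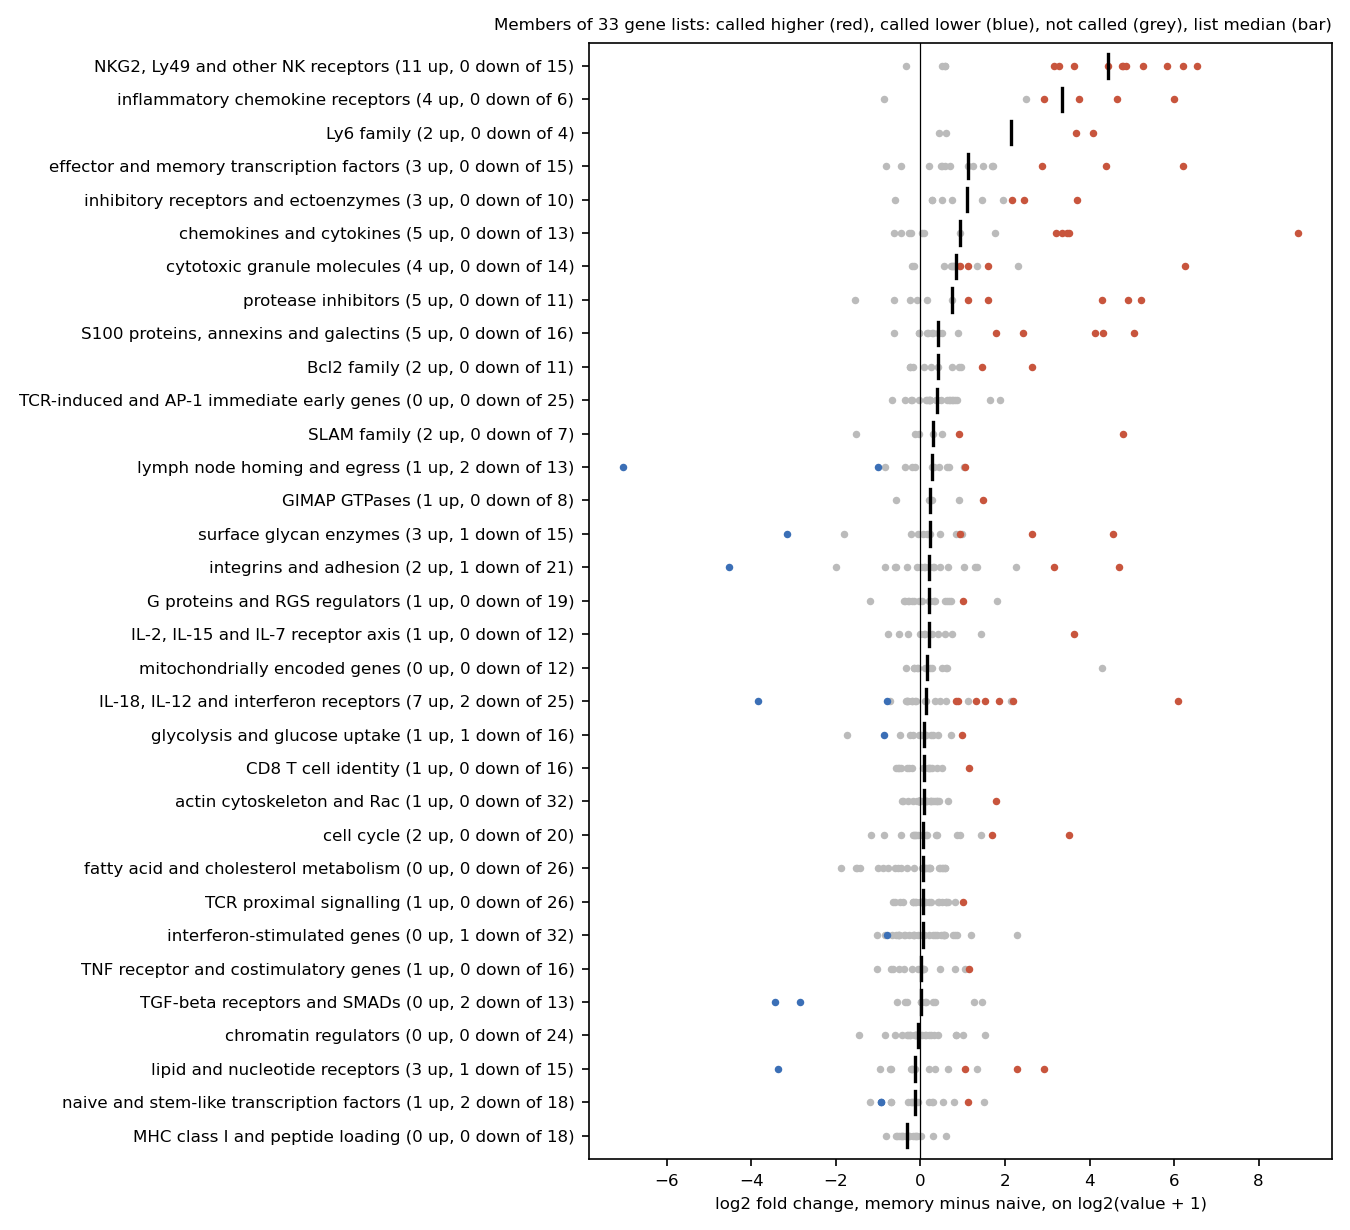
Each point is a tested member of one of 33 gene lists (rows, ordered by median), with its log2 fold change (memory minus naive, on log2(value + 1)) on the x axis, red where called higher, blue where called lower and grey where not called, and a black bar at the list's median. The NK receptors, the list named inflammatory chemokine receptors and the Ly6 family sit to the right with medians of 4.44, 3.34 and 2.15, and most other lists have medians close to 0.

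The 33 lists held 524 of the genes tested, and 68 of these were called higher and 12 lower. Over all genes tested 1.88% were called higher and 0.646% lower, and every list count below is to be read beside these shares. The lists were chosen with earlier results of these data known, so their counts are a description. Among transcription factors of effector and memory cells, 3 of 15 tested were higher and none lower (median 1.13). Tbx21, the T-bet gene (chromosome 11, 97098071 to 97115331, mm10), was 18.2, 5.42, 2.79 and 3.39 in naive and 379.7, 569.9, 438 and 648 in memory libraries. Runx2, a factor better known from bone, was 0.551, 5.42, 5.59 and 3.25 in naive and 53.9, 103, 77.3 and 121 in memory libraries. The lowest memory library held 20.9 times the highest naive one for Tbx21 and 9.64 times for Runx2. Their log2 fold changes were 6.21 ± 0.40 (adjusted p = 1.98e-09) and 4.39 ± 0.62 (adjusted p = 0.000128). Eomes, related to T-bet, rose from 15.4, 14.5, 5.59 and 7.90 to 88.7, 96.3, 74.8 and 66.4 (2.89 ± 0.49, adjusted p = 0.000854).

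Other factors linked to effector cells gave no call. Runx3, which directs CD8 lineage choice, was 123 to 158 in naive libraries and 179 to 195 in memory libraries (0.48 ± 0.20, adjusted p = 0.312). Id2 overlapped between the groups (-0.45 ± 0.33, adjusted p = 0.658). Prdm1, the Blimp-1 gene, was 13.8, 0, 1.40 and 2.26 in naive and 7.87 to 10.8 in memory libraries (adjusted p = 0.496). Zeb2 was under the filter, at 16.5 in naive library 1, 0 in the other 3 naive libraries and 0.630 to 4.14 in memory libraries.

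Of 18 transcription factors of naive and stem-like cells, 1 was higher and 2 were lower, against 2.52% of all genes called, and the median was -0.13. Lef1, which acts with TCF-1, fell from 862, 609, 758 and 800.3 to 348, 422, 316 and 528 (-0.92 ± 0.23, adjusted p = 0.0281). Leaving out naive library 1, 3 or 4 or memory library 1, 2 or 3 ended that call, with adjusted p reaching 0.106. Foxo1, a regulator of homing genes, fell from between 126 and 168 in naive to between 50.6 and 121 in memory libraries (-0.93 ± 0.24, adjusted p = 0.0431), and the call was kept only in the fit without memory library 2 (adjusted p up to 0.164). Id3, an inhibitor of E proteins, rose from between 47.5 and 77.8 to between 116 and 150.3 (1.13 ± 0.28, adjusted p = 0.0314), and was kept only without naive library 2 or 4 (adjusted p up to 0.118).

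Tcf7, the TCF-1 gene, was 559, 638, 763 and 614 in naive and 485, 579, 523 and 634 in memory libraries. These overlapped, and the 95% interval of the log2 fold change ran from -0.62 to 0.20, so a 2-fold fall lay outside it. Foxp1, a quiescence factor, had an interval of -0.60 to 0.25. Bach2, a repressor of effector genes, was 308.04, 139, 88.4 and 139 in naive and 88.0, 79.2, 59.3 and 46.5 in memory libraries (-1.18 ± 0.41, adjusted p = 0.181). Tox overlapped between the groups (-0.69 ± 0.59, adjusted p = 0.733).

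**Figure D4:**
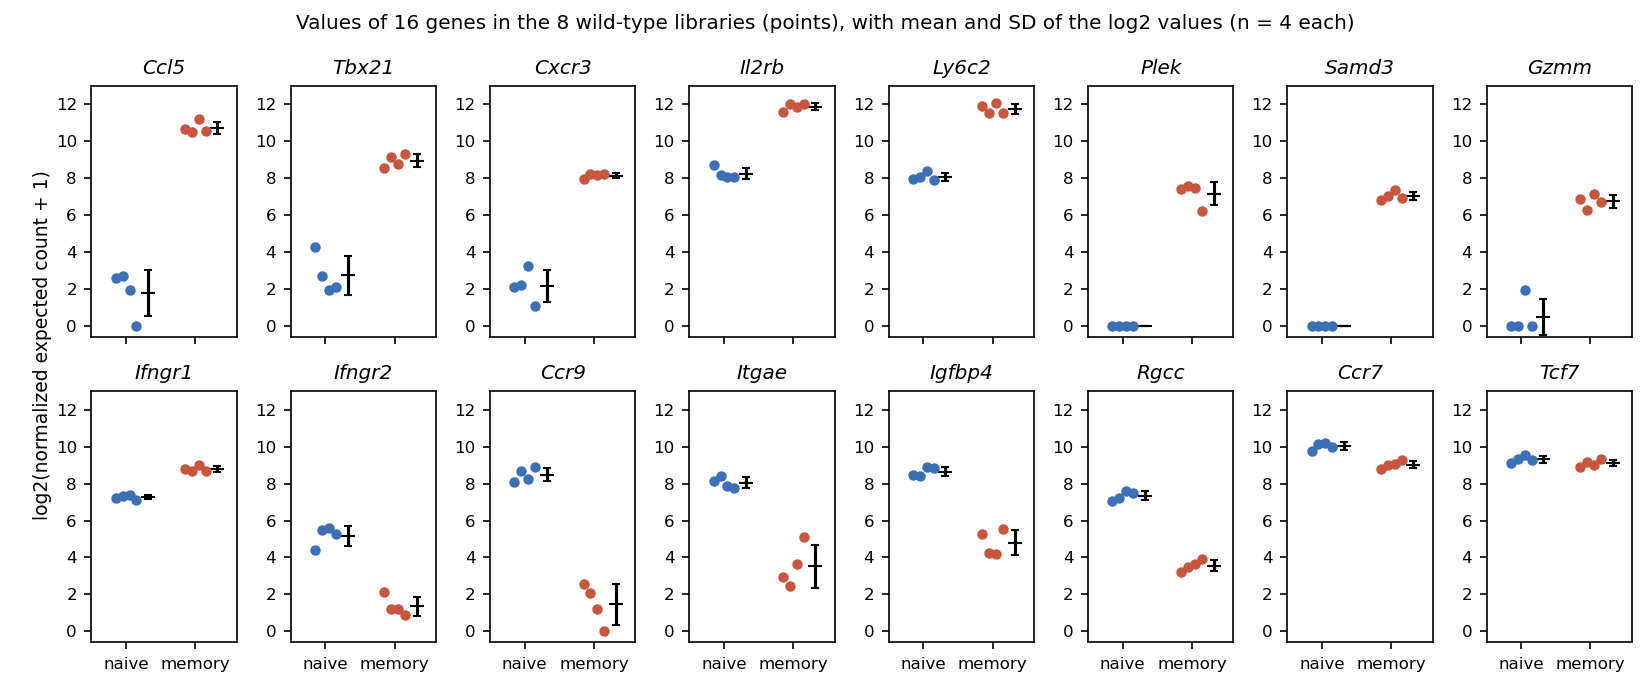
Points are the 4 naive (blue) and 4 memory (red) libraries for each of 16 genes, on the y axis as log2(normalized expected count + 1), and the black mark and bar are the mean and SD of the 4 log2 values. Memory points lie above naive points for Ccl5, Tbx21, Cxcr3, Il2rb, Ly6c2, Plek, Samd3, Gzmm and Ifngr1, below for Ifngr2, Ccr9, Itgae, Igfbp4, Rgcc and Ccr7, and among them for Tcf7.

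Genes of lymph node homing and egress did not move as one (13 tested, 1 higher, 2 lower, median 0.27, against 2.52% of all genes called). Ccr7, the receptor for lymph node chemokines, fell from 871, 1125, 1199 and 1029.8 to 444, 514, 529.8 and 619 without overlap (a log2 fold change of -1.0015 ± 0.21, adjusted p = 0.0092). S1pr1, the receptor for egress from lymph nodes, and Klf2, which drives it, overlapped between the groups (-0.20 ± 0.27 and 0.27 ± 0.35, adjusted p = 0.861 and 0.853).

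Ccr9, the receptor for the gut chemokine CCL25 (chromosome 9, 123678439 to 123784330, mm10), was 276, 410.4, 306.05 and 479.9 in naive and 4.97, 3.15, 1.29 and 0 in memory libraries. Its log2 fold change of -7.04 ± 0.46 (adjusted p = 2.66e-09) was the largest fall among all genes tested. Gpr183, an oxysterol receptor that positions cells in lymphoid tissue, rose from between 74.1 and 109 to between 155 and 240.4 (1.06 ± 0.28, adjusted p = 0.0451), a call that ended whichever of the 8 libraries was left out (adjusted p reaching 0.156).

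A list of receptors drawn up as inflammatory chemokine receptors, which also holds the follicle-homing receptor Cxcr5 and the sphingosine-1-phosphate receptor S1pr5, had 4 of the 6 tested higher, namely Cxcr3, Cxcr5, Ccr2 and S1pr5, and none lower (median 3.34, or 3.13 with S1pr5, listed at 0 in naive libraries, at its bound). The other members of the 14 were under the filter, which a gene silent in naive cells can pass only through other libraries. Cxcr3, the receptor for interferon-induced chemokines, was 3.30, 3.62, 8.38 and 1.13 in naive and 248.7, 299.7, 291 and 295 in memory libraries (5.99 ± 0.47, adjusted p = 2.82e-08). Cxcr5, the receptor that leads lymphocytes into follicles, was 2.75, 10.8, 6.99 and 5.65 in naive and 114, 149, 202 and 270.1 in memory libraries (4.66 ± 0.46, adjusted p = 1e-06). The lowest memory library held 29.7 times the highest naive one for Cxcr3 and 10.5 times for Cxcr5. Ccr2 and S1pr5, named after their values were seen, were lower in level, at 13.1 to 24.2 and 4.41 to 9.02 in memory libraries. Naive libraries held 0, 0, 2.79 and 0 for Ccr2 and none for S1pr5 (adjusted p = 0.00055 and 0.0112).

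Chemokine and cytokine genes were higher in 5 of 13 tested and lower in none (median 0.94), against 2.52% of all genes called. Ccl5, a chemokine that memory CD8 T cells store and release on contact (chromosome 11, 83525778 to 83530518, mm10), was 4.96, 5.42, 2.79 and 0 in naive and 1644, 1438, 2338 and 1510.5 in memory libraries, and its log2 fold change of 8.94 ± 0.55 was the largest rise of all genes (adjusted p = 1.66e-09). Ccl4, a chemokine for macrophages and T cells, rose from between 1.10 and 2.26 to between 20.6 and 47.3, and Xcl1, which attracts cross-presenting dendritic cells, from between 0 and 4.52 to between 21.0 and 30.7 (3.47 ± 0.49 and 3.22 ± 0.59, adjusted p = 0.000122 and 0.00216). Tnfsf14, the cytokine LIGHT, rose from between 0 and 6.61 to between 16.6 and 53.1 (3.35 ± 0.65, adjusted p = 0.00362). Weighting each value by its precision at the recovered depth with voom ended the calls of Ccl4 and Tnfsf14 (adjusted p = 0.0855 and 0.141).

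Ifng, the interferon gamma gene, was 0, 0, 1.40 and 1.13 in naive and 28.2, 15.7, 12.9 and 12.2 in memory libraries (3.53 ± 0.87, adjusted p = 0.0278). The call was kept only without naive library 3 or 4 (adjusted p up to 0.095).

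Granule genes rose in part, 4 of 14 tested, with none lower and a median of 0.85. Gzmm, granzyme M, was 0, 0, 2.79 and 0 in naive and 116, 76.2, 139 and 104 in memory libraries (6.27 ± 0.54, adjusted p = 1.21e-07). Cst7, cystatin F, an inhibitor of granule proteases, was already present in naive libraries and rose from 73.8, 97.6, 113 and 106 to 249.5, 207, 220.4 and 172 (1.12 ± 0.22, adjusted p = 0.00418), a call that voom weights ended (adjusted p = 0.0631). Ctsw, cathepsin W, rose from between 251 and 351 to between 520.1 and 694 (0.95 ± 0.25, adjusted p = 0.0398) but failed whichever of the 8 libraries was left out (adjusted p reaching 0.123).

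Perforin and granzyme B gave no call. Prf1, the pore-forming perforin, was 55.6, 68.7, 48.9 and 77.9 in naive and 114, 105, 133 and 118 in memory libraries. The groups did not overlap, but the log2 fold change of 0.91 ± 0.27 missed the threshold (adjusted p = 0.0907), and passed it with array weights (adjusted p = 0.0327). Gzmb, granzyme B, was under the filter, at 0 to 1.40 in naive libraries, 3.32, 0 and 0 in memory libraries 1 to 3, and 44.6 in memory library 4.

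NK receptors had the highest share of calls of the 33 lists, 11 of 15 tested higher and none lower, with a median of 4.44, or 3.17 with the 6 members listed at 0 in naive libraries at their bound. Of 23 members with values, 15 reached the filter, and those 6 could do so only through other libraries. The filter thus favours members that are high in memory cells, and the share is a description only. Reads of the near-identical Klra genes are shared out as estimates, so the value of each is uncertain. Klrc1, the gene of the inhibitory receptor NKG2A, had 0 in each naive library and 75.6, 99.5, 101 and 96.9 in memory libraries, at least 25.4-fold higher. Klra6 (Ly49F) was 0 in naive and 73.1, 95.5, 99.8 and 41.1 in memory libraries, at least 21.1-fold higher, and Klra1 (Ly49A) was 0 and 28.5, 40.8, 44.7 and 38.3, at least 10.4-fold higher. Klra7 (Ly49G) was 0, 1.81, 0 and 0 in naive and 89.4, 84.4, 84.5 and 45.3 in memory libraries (5.84 ± 0.64, adjusted p = 4.18e-06). Both Klra6 and Klra7 were lowest in memory library 4 among the memory libraries. Klrk1, the activating receptor NKG2D, named after its values were seen, was expressed in naive libraries too, at 4.19 to 29.2, and rose to 102 to 183 (3.17 ± 0.60, adjusted p = 0.00312).

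Most of the NK receptors called lay side by side. Between positions 129577905 and 130386874 of chromosome 6 (mm10), within the NK gene complex, 11 of 13 genes tested were higher and none lower, namely Klre1, Klrk1, Klrc2, Klrc1, Klra6, Klra4, Klra9, Klra7, Klra13-ps, Klra3 and Klra1. These are not the same 11 genes as the calls of the list. Klra4 and Klra13-ps were not in the list, while Fcer1g and Klrb1c, called in the list, lay outside this stretch. Of the 237 called genes with a chromosome, 36 lay in 9 such groups of at least 3 with gaps of at most 500000 bases. On chromosome 11, from 83511736 to 83664683, all 3 genes tested (Heatr9, Ccl5 and Ccl4) were higher, and so were all 3 on chromosome 16 from 58468125 to 58734251 (St3gal6, Gpr15 and Cldnd1). Other groups held both directions: on chromosome 9, from 123678439 to 124113557, Ccr9 and Lztfl1 were lower and Ccr2 higher, and on chromosome 10, from 75316877 to 75617200, Lrrc75b, Ggt1 and Ggt5 were lower and Adora2a higher. Each group was built from called genes and begins and ends at a called gene, so a high share of calls inside it is built in. These groups were described without a test, and members other than those of the lists were named after their values were seen.

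Of the 12 tested genes of the IL-2, IL-15 and IL-7 receptor axis, 1 was called, against 2.52% of all genes tested (median 0.20). Il2rb, the CD122 gene (chromosome 15, 78479256 to 78495271, mm10), was 416, 293, 266 and 265 in naive and 3130.3, 4229, 3683 and 4175 in memory libraries (3.63 ± 0.27, adjusted p = 1.55e-08), and the lowest memory library held 7.53 times the highest naive one. Il7r, the IL-7 receptor alpha chain, overlapped at 319 to 462 and 411 to 619 (0.28 ± 0.21, adjusted p = 0.666, 95% interval -0.15 to 0.71).

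The receptors for IL-18, IL-12, IL-4, IL-10 and interferons had 7 of 25 members higher and 2 lower (median 0.12). Il18rap, the accessory chain of the IL-18 receptor, was 0.551, 0, 2.78 and 18.1 in naive and 192, 243, 214 and 240.4 in memory libraries (6.10 ± 0.59, adjusted p = 7.82e-07). Il18r1, its ligand-binding chain, rose from 42.6, 38.0, 15.4 and 30.5 to 133, 161, 155 and 112 (2.19 ± 0.40, adjusted p = 0.00213). The accessory chain was thus close to silent in naive libraries 1 to 3, whereas the binding chain was not. Il12rb1, a chain of the IL-12 receptor, rose from between 6.06 and 16.3 to between 29.6 and 41.4 (1.87 ± 0.47, adjusted p = 0.0323), a call kept only without naive library 2 (adjusted p up to 0.106). Il4ra, Il10ra and Il10rb, named after their values were seen, rose by 0.84, 1.31 and 0.88 (adjusted p = 0.0298, 0.0367 and 0.0463). Il4ra was kept only without naive library 1 or memory library 4, Il10ra only without naive library 2 or memory library 4, and Il10rb in none of the 8 fits (adjusted p up to 0.119, 0.128 and 0.172).

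The chains of the interferon gamma receptor went opposite ways. Ifngr1, the ligand-binding chain (chromosome 10, 19591949 to 19610229, mm10), was 146, 161, 164 and 139 in naive and 441, 417, 516 and 406 in memory libraries (1.54 ± 0.19, adjusted p = 1.83e-05). Ifngr2, the signalling chain (chromosome 16, 91547072 to 91565623, mm10), was 20.1, 43.4, 47.5 and 37.3 in naive and 3.32, 1.28, 1.29 and 0.874 in memory libraries (-3.83 ± 0.56, adjusted p = 0.000178). Neither gene's groups overlapped, and both calls were kept in all 8 fits. The list of 32 interferon-stimulated genes had 1 call, lower in memory cells, near the 2.52% of all genes called, and a median of 0.06. Tgtp2, an interferon-inducible GTPase outside that list, fell from between 391 and 481 to between 172 and 295 (-0.98 ± 0.21, adjusted p = 0.00749).

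Of 13 TGF-beta receptor and SMAD genes 2 were lower and none higher, against 2.52% of all genes called, with a median of 0.01. Tgfbr3, the co-receptor betaglycan, fell from 139.9, 70.5, 75.5 and 77.9 to 12.4, 16.4, 3.87 and 18.4 (-2.86 ± 0.61, adjusted p = 0.00854). Acvrl1, a type I receptor named after its values were seen, fell from between 11.2 and 32.7 to between 0 and 1.75 (-3.43 ± 0.62, adjusted p = 0.00182). Both calls were kept in all 8 fits.

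Integrin and adhesion genes had 2 of 21 higher, 1 lower and a median of 0.20, against 2.52% of all genes called. Besides Cd44, Itgb1, the beta 1 integrin chain, rose from 27.0, 14.5, 12.6 and 19.2 to 134, 128, 111 and 383 (3.16 ± 0.50, adjusted p = 0.00041), with memory library 4 far above the other 3. Itgae, the CD103 chain that binds E-cadherin, fell from 277, 344, 235 and 218 to 6.63, 4.41, 11.6 and 33.2 (-4.52 ± 0.56, adjusted p = 2.13e-05), again with memory library 4 the highest of its group. Itga4, the CD49d chain that pairs with beta 1, was 584 to 864 in naive libraries and 389.6 to 527 in memory libraries and did not pass (-0.59 ± 0.31, adjusted p = 0.475).

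Enzymes that build surface glycans had 3 of 15 higher and 1 lower (median 0.23). St3gal6, a sialyltransferase, rose from 24.8, 14.5, 25.2 and 13.6 to 99.5, 102, 142 and 154 (2.64 ± 0.24, adjusted p = 3.19e-07). Chst11, a chondroitin sulfotransferase, was 1.10, 0, 0 and 0 in naive and 21.6, 41.6, 15.5 and 40.2 in memory libraries (4.56 ± 0.51, adjusted p = 4.71e-06). St8sia1, the ganglioside GD3 synthase, went the other way, from 93.1, 139, 97.4 and 83.6 to 27.4, 6.93, 40.0 and 0.874 (-3.16 ± 0.69, adjusted p = 0.0109), with a wide spread over memory libraries. That call did not pass with the 8 wild-type libraries alone in the fit (adjusted p = 0.0686). St6gal1, which adds alpha 2,6 sialic acid, rose by 0.93 ± 0.24 (adjusted p = 0.0398), kept only without naive library 1 or memory library 1 (adjusted p up to 0.142).

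Ly6c2, which encodes the memory marker Ly6C (chromosome 15, 75108158 to 75111970, mm10), was 250.4, 264, 330.0 and 242 in naive and 3833, 2998, 4249.7 and 2944 in memory libraries (3.68 ± 0.37, adjusted p = 1.13e-06). Its near-identical neighbour Ly6c1 rose from between 0 and 5.70 to between 27.6 and 104 (4.09 ± 0.69, adjusted p = 0.000887), a call that voom weights ended (adjusted p = 0.339), and reads may be split wrongly between the pair. The other 2 of the 4 Ly6 genes tested did not pass.

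Inhibitory receptors and ectoenzymes were higher in 3 of 10 and lower in none (median 1.10). Cd160, which binds HVEM, rose from 14.3, 38.0, 19.6 and 38.4 to 118, 111, 126 and 118 (2.18 ± 0.38, adjusted p = 0.00158). Cd38, an NAD-consuming enzyme, was 0, 1.81, 0 and 6.96 in naive and 18.2, 34.0, 31.9 and 28.1 in memory libraries (3.70 ± 0.59, adjusted p = 0.000422). Of 7 SLAM family genes 2 were higher. Slamf7, a receptor of NK and CD8 T cells, rose from 1.10, 0, 2.79 and 5.65 to 73.0, 95.7, 73.5 and 56.8 (4.79 ± 0.53, adjusted p = 4.71e-06). Sh2d1a, its family's adaptor SAP, rose by 0.92 ± 0.24 (adjusted p = 0.0459), kept only without naive library 4 or memory library 4, the libraries in which the groups came closest at 70.0 and 72.6 (adjusted p up to 0.16).

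Inhibitors of proteases held the gene with the smallest adjusted p of all, and 5 of 11 members were higher and none lower (median 0.75). Ctla2a, a cysteine protease inhibitor (chromosome 13, 60934155 to 60936625, mm10), was 8.98, 13.5, 18.2 and 10.8 in naive and 474, 449, 600.4 and 473 in memory libraries (5.21 ± 0.28, adjusted p = 1.99e-10). Its neighbouring copy Ctla2b rose from between 2.64 and 11.8 to between 93.5 and 163 (4.29 ± 0.49, adjusted p = 6.2e-06), and reads of the pair may be split wrongly. Serpina3g, a serpin that inhibits cathepsin B, rose from 1.10, 0, 1.40 and 0 to 51.8, 38.0, 37.3 and 51.0 (4.91 ± 0.68, adjusted p = 8.61e-05). Serpinb6b, which belongs to a family of close copies, rose from between 20.9 and 48.5 to between 68.0 and 123 (1.59 ± 0.36, adjusted p = 0.0137), a call that ended when naive library 1 or memory library 4 was left out (adjusted p reaching 0.0559).

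S100, annexin and galectin genes were higher in 5 of 16 and lower in none (median 0.43). Anxa2, a membrane-binding annexin, rose from 7.16, 5.42, 11.2 and 4.52 to 169.9, 152, 135 and 159 (4.33 ± 0.38, adjusted p = 1.77e-07). S100a6 was 1.65, 0, 0 and 0 in naive and 45.6, 34.0, 27.1 and 68.2 in memory libraries, and S100a4 was 0.551, 0, 0 and 0 and then 18.2, 12.6, 12.9 and 39.3 (5.05 ± 0.50 and 4.13 ± 0.78, adjusted p = 1.06e-06 and 0.00279). Both calcium-binding proteins were highest in memory library 4. Ahnak, a very large scaffold protein that binds S100 proteins, rose from 584, 529.8, 191 and 216 to 1527, 2026, 1405 and 2555 (2.44 ± 0.62, adjusted p = 0.0351), kept only without naive library 1 or 2 (adjusted p up to 0.134).

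Lists of Bcl2 family, cell cycle and glycolysis genes had most members without a call, though the called share of each was above the 2.52% of all genes. Of 11 Bcl2 family genes 2 were higher, Bcl2l1 and Pmaip1, the latter named after its values were seen (median 0.42). Bcl2l1, the Bcl-xL gene, rose from 9.91, 21.7, 12.6 and 37.3 to 68.0, 52.9, 45.1 and 42.8 (1.47 ± 0.39, adjusted p = 0.0455), kept only without naive library 4 (adjusted p up to 0.16). Mki67, which marks cycling cells, was 5.51, 0, 1.40 and 0 in naive and 14.9, 13.9, 26.5 and 40.2 in memory libraries (3.52 ± 0.78, adjusted p = 0.012), a call that ended when naive library 2 or memory library 4 was left out (adjusted p reaching 0.0544). H2afz, a histone variant gene, rose from between 215 and 356 to between 631 and 868 (1.33 ± 0.30, adjusted p = 0.0145), a call that ended when naive library 1 or memory library 3 was left out (adjusted p reaching 0.0577). Pfkp, a phosphofructokinase of glycolysis, rose from between 67.6 and 119.7 to between 151 and 198 (0.99 ± 0.21, adjusted p = 0.00731), a call that voom weights ended (adjusted p = 0.0784). Pdk1, a kinase that inhibits pyruvate dehydrogenase, fell from between 173 and 204 to between 69.9 and 131 (-0.85 ± 0.22, adjusted p = 0.042), kept only without memory library 1 or 3 (adjusted p up to 0.161). Of 20 cell cycle genes 2 were higher, Mki67 and Stmn1, the latter named after its values were seen (median 0.07), and of 16 glycolysis genes 1 was higher and 1 lower (median 0.08).

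Receptors for lipids and nucleotides had 3 of 15 members higher, 1 lower and a median of -0.12. Adora2a, the receptor for adenosine that raises cyclic AMP, rose from 12.1, 12.7, 18.2 and 26.0 to 57.2, 74.3, 88.9 and 133 (2.29 ± 0.41, adjusted p = 0.00159). Ramp1, which turns the calcitonin receptor-like receptor into a CGRP receptor, fell from 185, 174, 141 and 167 to 13.3, 13.2, 19.3 and 15.7 (-3.36 ± 0.28, adjusted p = 5.77e-08), and both groups were narrow.

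Among signalling genes of the T cell receptor calls were few, as over all genes tested, of which 2.52% passed. At that share a list of this size may hold 1 call or none, so the counts below do not show a lack of change. Of 26 proximal components 1 was higher, Sh2d2a, an adaptor of Lck, from 540.3, 501, 273 and 359 to 706, 891, 726 and 955 (1.01 ± 0.25, adjusted p = 0.0281), a call that ended when naive library 3 or 4 or memory library 2 or 4 was left out (adjusted p reaching 0.128). None of 25 T cell receptor-induced and AP-1 genes was called, and Nr4a1, which reports receptor signals, was 59.8 to 159 in naive libraries and 52.9 to 149 in memory libraries (0.21 ± 0.44, adjusted p = 0.922). Cd5, whose level follows receptor signal strength, was 134 to 191 in naive libraries and 199 to 241 in memory libraries and did not pass (0.52 ± 0.18, adjusted p = 0.171). Gimap4, a lymphocyte GTPase, rose from 255, 320.0, 327 and 407 to 789, 808, 922 and 1115 (1.48 ± 0.28, adjusted p = 0.00279), the 1 call among 8 GIMAP genes. Among 32 genes of the actin cytoskeleton and Rac, Myo1f, a myosin, was called (44.0, 36.2, 37.7 and 30.5 to 159, 196, 162 and 54.2, 1.78 ± 0.33, adjusted p = 0.00279), a call that voom weights ended (adjusted p = 0.0807). Rgs3, a brake on G protein signals, rose by 1.02 ± 0.25 (adjusted p = 0.0294), kept only without naive library 1 or memory library 3 (adjusted p up to 0.126). Lists of 24 chromatin regulators, 18 MHC class I and peptide loading genes, 26 fatty acid and cholesterol genes and 12 mitochondrially encoded genes had no call, with medians of -0.06, -0.31, 0.07 and 0.16.

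Outside the lists, several genes with little or no RNA in naive cells were high in memory cells. Plek, pleckstrin, had 0 in each naive library and 168, 190.1, 178 and 73.4 in memory libraries, at least 41.6-fold higher. Samd3, a gene of little known function, was 0 in naive and 114, 129.7, 164 and 122 in memory libraries, at least 36.2-fold higher. Cd163l1, a scavenger receptor gene known from gamma delta T cells, was 0 in naive and 52.2, 33.4, 65.7 and 96.2 in memory libraries, at least 16.9-fold higher, beside the gamma delta markers given above. All 3 were listed at 0 in every naive library and could reach the filter only through other libraries. That they passed the test in all 8 fits is thus a description. Gas7 rose from 7.44, 1.93, 0 and 0 to 89.9, 123, 104 and 196 (5.79 ± 0.78, adjusted p = 7.2e-05). Osbpl3, a lipid transfer protein, rose from 0, 0, 0 and 5.65 to 61.3, 48.5, 23.2 and 149 (5.17 ± 0.67, adjusted p = 3.91e-05). Memory library 4 was the highest for both and the lowest for Plek.

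Further genes of this kind had low but measurable values in naive cells. Ppm1j, a protein phosphatase, rose from between 0 and 7.90 to between 57.9 and 83.7 (4.31 ± 0.62, adjusted p = 0.000148), and Arl4d, a small GTPase, from between 0 and 1.81 to between 29.0 and 101 (4.79 ± 0.59, adjusted p = 2.13e-05). Pogk, a protein with a transposase domain, and Zfp296, a zinc finger protein, rose by 4.07 and 3.93 (adjusted p = 0.00185 and 0.00055), the latter at an adjusted p of 0.0507 with voom weights. Ifitm10 rose from between 5.42 and 13.97 to between 56.4 and 85.1 (2.91 ± 0.33, adjusted p = 5.68e-06). Fgr, a Src family kinase best known from myeloid cells, rose from 4.40, 5.42, 6.99 and 23.7 to 49.7, 78.7, 29.6 and 123 (2.78 ± 0.59, adjusted p = 0.00889). Thtpa, a thiamine triphosphatase, rose by 2.79 ± 0.60 (adjusted p = 0.00936). Zyx, zyxin, a focal adhesion protein, was among the called genes of the highest values, at 248.8 to 358 in naive libraries and 637 to 848 in memory libraries (1.26 ± 0.20, adjusted p = 0.000406).

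Genes lower in memory cells were of mixed function. Igfbp4, an inhibitor of insulin-like growth factor (chromosome 11, 99041244 to 99054392, mm10), was 356, 336, 474 and 456 in naive and 37.7, 17.9, 17.3 and 45.0 in memory libraries (-3.84 ± 0.35, adjusted p = 2.67e-07). Rgcc, a regulator of the cell cycle (chromosome 14, 79288756 to 79301645, mm10), fell from 134, 150.1, 191 and 179.5 to 8.29, 10.1, 11.6 and 13.99 (-3.79 ± 0.28, adjusted p = 1.37e-08). Both kept a low level in every memory library. Slc6a19, a neutral amino acid transporter known from gut and kidney, fell from 72.7, 128, 144 and 137 to 0.83, 22.7, 1.29 and 5.24 (-4.56 ± 0.70, adjusted p = 0.000328). Xkrx, a membrane protein, fell by 3.70 and Mtss1, which shapes membranes, by 3.14 on the log2 scale (adjusted p = 0.000101 and 0.000909). For Mtss1 the fall was smallest in memory library 4, at 27.1 against 3.87 to 7.56 in the other 3.

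The other falls named by size lay between 2.86 and 1.94 on the log2 scale. Igflr1, a receptor of the TNF receptor family, fell from between 42.3 and 85.6 to between 9.43 and 16.05 (-2.26 ± 0.30, adjusted p = 6.01e-05). Ggt1, which breaks down extracellular glutathione, fell from between 43.3 and 84.2 to between 6.45 and 28.2, and Abca3, a lipid transporter, from between 63.3 and 132 to between 13.99 and 29.1 (-2.10 ± 0.37 and -2.06 ± 0.34, adjusted p = 0.00173 and 0.000638). Trib2, a pseudokinase, fell from between 107 and 209.8 to between 13.99 and 62.2 (-1.94 ± 0.38, adjusted p = 0.00366). Cpm, a carboxypeptidase, and Inadl, a polarity scaffold, also passed (-2.86 ± 0.71 and -1.99 ± 0.48, adjusted p = 0.0282 and 0.0246). Cpm was lost without any 1 of the naive libraries, and Inadl when memory library 2 or 4 or naive library 1, 2 or 4 was left out (adjusted p up to 0.0888 and 0.0944).

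Among lower genes with high values, Sepp1, which encodes the selenium carrier selenoprotein P, fell from 421, 696, 674 and 521 to 160.0, 183, 157 and 135 (-1.84 ± 0.21, adjusted p = 5.05e-06). Inpp4b, a phosphatase that removes a PI3 kinase product, fell from 374, 289, 301.9 and 304.9 to 131, 125, 119.9 and 78.7 (-1.50 ± 0.24, adjusted p = 0.000453). The lowest naive library held 2.30 times the highest memory library for Sepp1 and 2.21 times for Inpp4b.

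The memory libraries differed most among themselves in genes that gave no call. Of genes with a memory mean of at least 50, the largest SD of log2 values was that of mt-Co3, a mitochondrial gene of cytochrome oxidase. It was 423, 311.4, 1311 and 0.533 in the memory libraries and 0.567, 0.633, 0.279 and 548 in the naive ones, so that it was present in 3 libraries of one group and 1 of the other. Next came the gene model Gm4332, at 331, 239, 509 and 0 in the memory libraries, and the ribosomal protein pseudogene Rps16-ps2, at 293, 199, 380.4 and 0. Memory library 4 was thus the one in which all 3 were close to or at 0. Pseudogenes and mitochondrial genes with copies elsewhere in the genome share reads with those copies, so these values are uncertain.

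The memory effect was set against that of Dock2-deficient mice, whose libraries are separate from those above. Over all genes tested, 5422 of 9437 had the same sign in both. Of the 177 higher genes 171 had the same sign and 110 were also called higher there, and of the 61 lower genes 61 and 39, against 266 genes (2.82%) called there in either direction. A test of the difference between the effects passed for 3 of the 9437 genes (0.0318%), with 492 at an unadjusted p under 0.05. Tbx21 rose by 6.21 in wild-type and 2.92 in Dock2-deficient mice (difference 3.29, adjusted p = 0.0287), and Tmie, a membrane protein of sensory hair cells, fell by 4.92 and 2.10 (difference -2.82, adjusted p = 0.0495). Mean Tbx21 values were 7.44 in naive and 509 in memory libraries of wild-type mice, and 49.2 and 369 in those of Dock2-deficient mice. With a pseudocount of 5 the Tmie difference was -1.38 and did not pass (adjusted p = 0.498). Tmie was 42.4, 54.2, 39.1 and 44.0 in wild-type naive and 0, 1.26, 1.29 and 0 in wild-type memory libraries.

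Trdc, the constant gene of the T cell receptor delta chain, rose by 1.63 ± 0.39 in wild-type mice, from 2.43, 3.63, 4.19 and 5.65 to 8.32, 18.9, 14.6 and 16.6 (adjusted p = 0.0228), and fell by 1.52 in Dock2-deficient mice (difference 3.16, adjusted p = 0.0287). Leaving out naive library 1 or 2 or memory library 2, 3 or 4 ended the wild-type call, with adjusted p reaching 0.0842. In the test of the difference none of the 9437 genes passed once naive library 2, 3 or 4 or memory library 3 or 4 was left out, and 1 passed once naive library 1 was. By Xist and Y-linked RNA all 8 wild-type libraries read as female and 4 of 5 Dock2-deficient libraries of each sort as male, with 1 of each sort as female. Sex and genotype thus went together in all but those 2 libraries and cannot be told apart in this test. Nor can the substrain that the descriptions name and the genotype.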

How the data were processed

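CD8 T cells of wild-type mice were sorted by surface CD44 into naive and memory-phenotype cells, and their RNA was sequenced (4 libraries each, 8 of 18 in the series). Per the labels' protocols, a Qiagen RNAeasy kit and Smartseq2, a full-length method without strand information, were used for extraction and libraries. Per the submitters' processing notes, mm10, bcl2fastq, FastQC and RSEM were used. Versions, aligner settings and the annotation are not given in the sources used here.

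Values in the deposited table are a signal, namely expected counts from RSEM that the authors scaled between libraries. Depth was read back from the value of 1 read in each library: all values lay on a grid of 0.01 reads, 59.5% to 69.3% of those above 0 were whole within 0.005, and this factor matched the median ratio of that library over 8606 genes (largest relative difference 9.8e-09). As many values were fractional, no count model was run. Every column belonged to a sample of the series, and 46488 identifiers (98.9%) had a position in GENCODE M21 (mm10).

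The 9437 genes reaching 10 in 4 or more of the 18 libraries were tested with limma 3.58.1 (R 4.3.3) on the scale log2(value + 1). The model had 1 mean per group over all 18 libraries, 14 residual degrees of freedom and a variance trend (6.43 prior degrees of freedom). All tests are two-sided, with Benjamini-Hochberg adjustment over all genes tested and a threshold of 0.05. The scale understates the change of low genes. On simulated data for this comparison (9435 genes), the fit called 31 of 100 genes changed 2-fold and 85 of 100 changed 4-fold. The changed genes were drawn only from those with a mean value of at least 50. The median gene tested had a mean of 38.4 over the wild-type libraries, so these shares do not cover genes of lower value. Tables and plots were made in Python 3.11.15 (pandas 2.3.3, numpy 2.4.6, matplotlib 3.10.9). Promoter sequences came from RefSeq (GRCm38.p6).

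The comparison, the 33 gene lists, the 9 marker lists and the panel of 27 genes were chosen with earlier results of these data known, so lists are described by counts and medians without a test. Named were up to 4 called genes in each direction per list (larger group mean of at least 20), the 12 largest changes in each direction outside the lists without overlap of the groups (larger mean of at least 50, no unnamed models, pseudogenes or receptor segments), the 8 called genes of highest mean in each direction, the panel, the 5 genes most variable among memory libraries, and the genes whose effect differed between genotypes. Some genes that the rule took are not reported here. Values of near-identical copies (the Klra, Ly6c, Ctla2, Serpinb6 and Gbp families) are uncertain. Alternatives covered the pseudocount, filter, scaling, weights, variance moderation, libraries in the fit, the replicate block and leaving out each library.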

Additional observations from a re-analysis of the deposited data

Results flagged for a closer look

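In 234 groups of 4 libraries (naive or memory values of a named gene, and depth), 24 held a library farther from its nearest neighbour than Dixon's critical share of the range, where chance gives about 1 in 20. In 6 of the 24 the other 3 libraries were all at 0, so that any read meets this rule and the chance rate does not apply. Memory library 4 was such a library for 6 genes: it was lowest for Klra7 (45.3), Cd44 (124) and Sh2d1a (72.6), and highest for Itgb1 (383), Arl4d (101) and Mtss1 (27.1). Memory library 1 was lowest for Cxcr3 (248.7) and Klrc1 (75.6) and highest for Ifngr2 (3.32) and Igflr1 (16.05), and memory library 3 was highest for Ctla2a (600.4). Among naive libraries, number 4 was highest for Il18rap (18.1), Sh2d1a (70.0), Osbpl3 (5.65) and Fgr (23.7), number 2 for Klra7 (1.81) and Xkrx (88.7), and number 3 for Gzmm (2.79). Naive library 1 was highest for Tgfbr3 (139.9), Chst11 (1.10), S100a6 (1.65), S100a4 (0.551), Prdm1 (13.8) and for depth, at 6841970 expected reads. For genes close to silent in naive cells, such a value rests on few reads. Whether depth or other cells account for any of these values was not tested.

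The memory effect differed between genotypes by limma's test of the difference for 3 genes: Tbx21 (3.29), Trdc (3.16) and Tmie (-2.82). The sex that the libraries read as and the genotype cannot be told apart in that test.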

How the results depend on the processing

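No call of the comparison changed sign in any of the 21 other fits. For genes whose groups did not overlap, leaving out a library or changing the pseudocount or filter could not turn the sign. Of the 95 called genes that the naming rule took, 64 kept their call in each of those fits that tested them. The 238 calls (177 higher, 61 lower) became 140 (103 and 37) with a minimum value of 50, which tested 4677 genes. They became 377 (272 and 105) with array weights, and 137 (91 and 46) with voom weights, where the median of all genes lay at -0.15. With only the wild-type libraries in the fit there were 179 (138 and 41), of which 127 and 40 were among the 177 and 61. The share of calls that were higher was 74.4%, and 66.4% to 77.1% over the other fits. Leaving out 1 library at a time gave 185 to 214 calls (135 to 159 higher, 47 to 71 lower). Without memory library 4 and Dock2-deficient memory library 5, an alternative chosen after seeing the data, there were 209. The cause of these shifts was not tested.

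Tox, not called, turned from -0.69 to 0.14 with array weights and to 0.24 without memory library 4, also with both libraries left out. With 1 library left out it ranged from -1.09 to 0.24.

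The labels do not say whether same-numbered naive and memory libraries belong together. Their deviations from the group means had correlations of -0.02, 0.03, 0.13 and 0.01. Naive libraries 2 and 3 correlated best with the memory library of their own number, and naive libraries 1 and 4 with another. With 4 libraries in each group this cannot show whether the numbers pair them. With the replicate block 196 genes were called (147 higher, 49 lower), and 0 for the difference between genotypes.

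The 3 genes whose effect differed between genotypes became 0 with no filter or voom weights, 3 without Tmie (-1.38) with a pseudocount of 5, 1 with the filter over wild-type libraries or a minimum of 50, 5 with array weights, 0 to 2 with 1 library left out, and 0 without both libraries named above. Motif shares of called genes were not compared, since fewer than 80% of them had a promoter entry.

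An interval within 2-fold was reached by 3520 of 9437 genes and by 1273 of the 1947 with a mean of at least 100. The part of depth in this was not tested.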
